A study of Rattus norvegicus with 65 samples.

Results

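Gpr151, Pou4f1, Nwd2, Scube1, Tcf7l2, Prkcd and Lef1 are 7 of the 38513 genes in a table of read counts made from rat hypothalamus, and they are treated here as markers of the habenula (the first 4) and of the thalamus (the last 3). They were selected on their measured levels in these same 65 libraries, so their levels and differences are given as a description, and where a fit of all genes called a member nothing is concluded from the call. The study asked how gastric bypass, matched weight loss and gut hormones act on the hypothalamus of male Wistar rats, which were 9 to 10 weeks old at the start. Hypothalami were collected 4 weeks into the intervention, once the rats had gone 10 h without food, and poly-A RNA was sequenced as single reads of 75 bases. Animals were handled in 2 experimental periods, called batch A (37 libraries) and batch B (28 libraries). Total counts per library ran from 20041010 to 36539941, with a median of 27379945.

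The groups that had been made obese with 6 weeks of high-fat feeding were RYGB (Roux-en-Y gastric bypass, 14 rats, 11 in batch A and 3 in batch B), sham (11 rats, 5 in A and 6 in B), BWM (sham-operated rats whose food was restricted so that their weight followed that of RYGB rats, 7, all in A) and 4 groups with both a minipump and injections. Those 4 were saline (8 rats, 3 in A and 5 in B), liraglutide (a stable GLP-1 analogue, 0.4 mg per kg a day, 5, all in B), PYY3-36 (a gut peptide, 0.1 mg per kg a day, 4, all in B) and PYY3-36 + liraglutide (10, 5 in each batch). Rats labelled lean (6, all in A) complete the set, and the labels give no feeding detail for them. Apart from BWM, the obese groups could choose between high-fat and low-fat food. Libraries are named below by group and replicate number, as in saline 7.

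The habenula is a small pair of nuclei at the back and top of the thalamus, next to the third ventricle and the stalk of the pineal gland. Its medial part holds cholinergic and peptide neurons that project to the interpeduncular nucleus and carry unusual nicotinic receptor subunits, and the relay nuclei of the thalamus hold glutamatergic neurons that project to the cortex. The hypothalamus lies directly beneath the thalamus, so that a block of tissue taken around the third ventricle can hold parts of both.

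The table lists Gpr151 as gene34551 at chr18:36892403-36893797 on the minus strand and Pou4f1 as gene31539 at chr15:88618255-88622712 on the minus strand, in rat build Rnor_6.0. In the same build Nwd2 is gene29627 at chr14:46136780-46153320 (minus) and Scube1 is gene19008 at chr7:124501988-124620755 (minus). Tcf7l2 is gene4883 at chr1:276686911-276730517 (plus), Prkcd is gene31809 at chr16:6655131-6675746 (minus) and Lef1 is gene7424 at chr2:236232115-236345061 (plus). The 7 genes lie on 7 chromosomes, and all 7 passed the filter on low counts that kept 21871 genes. Gpr151 and Pou4f1 passed it through a few libraries in which they were high.

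Before any group is compared, 3 libraries stood apart from the other 62. Saline 7 and saline 5, both in batch B, were among the 5 highest libraries for each of the 7 genes, and sham 1, in batch A, was among the 5 highest for Gpr151, Tcf7l2, Prkcd and Lef1. RYGB 13 followed with 3 of the genes (Tcf7l2, Prkcd and Lef1). Results are therefore given with all 65 libraries and again without saline 5, saline 7 and sham 1, a choice made after seeing the data.

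The label hypothalamus was checked against 16 genes whose expression defines hypothalamic cell groups, of which Pmch (melanin-concentrating hormone) was the most abundant. Their summed level had a median of 1799 CPM (counts per 1000000 counts of a library, scaled by the trimmed mean of M-values throughout) and reached 8219 CPM in PYY3-36 + liraglutide 10. The sum was 1342 CPM in saline 5, 791 CPM in saline 7 and 450.0 CPM in sham 1. It was lower still in 12 libraries from 7 of the 8 groups: lean 2 (52.8 CPM), BWM 1 (56.9), PYY3-36 2 (58.8), sham 2 (62.7), lean 5 (63.6), saline 4 (68.1), liraglutide 3 (68.7), PYY3-36 + liraglutide 8 (93.8), sham 6 (in between), sham 10 (128), liraglutide 4 (145) and saline 3 (173). No RYGB library lay under 729.9 CPM. In saline 4 and lean 2 the levels of Pmch were 1.86 and 3.84 CPM against a median of 563 CPM, and Otp, a transcription factor of hypothalamic neurons, was at 0.0905 CPM in saline 4 and at 0 counts in lean 2 and sham 2. The defining markers of the labelled tissue were thus near or at absence in those libraries, and their level varied widely between rats of 1 group. In whole tissue, fewer cells of a type and less RNA per cell cannot be told apart.

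Gpr151 encodes an orphan G protein-coupled receptor found on the axons of habenular neurons. It stood at 91.7 CPM in saline 7 (2068 counts), 44.7 CPM in saline 5 and 1.04 CPM in sham 1 (33 counts), and the median of the 65 libraries was 0.0511 CPM. It was below 1 CPM in the other 62 libraries and at 0 counts in 26 of them, where 3 counts, the floor used here, would correspond to 0.0863 to 0.165 CPM. The 2 saline libraries thus carried nearly all the reads of this gene, and the library next to them was a sham library from the other batch.

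Among the saline libraries Gpr151 ranged from 0 to 91.7 CPM with a median of 0.124 CPM, so the group was near the floor apart from saline 5 and 7. The 4 PYY3-36 libraries had 0.119, 0, 0.0820 and 0 CPM, and the 5 liraglutide libraries had 0, 0.0962, 0, 0.396 and 0.550 CPM. Medians were 0.0766 CPM in lean, 0.0425 in RYGB, 0.0339 in PYY3-36 + liraglutide, 0.0324 in BWM and 0 in sham, with highest values of 0.309, 0.294, 0.282, 0.503 and 1.04 CPM. All 8 groups overlapped, and no order of their medians exceeded the spread within groups.

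Pou4f1 encodes a POU-domain transcription factor that habenular neurons need for their identity, and it followed the same libraries. It reached 30.6 CPM in saline 7, 13.2 CPM in saline 5 and 2.0 CPM in BWM 7, against a median of 0.0446 CPM and 0 counts in 24 libraries. The next values were 0.861 CPM in PYY3-36 3 and 0.784 CPM in RYGB 12, and sham 1 had 0.409 CPM. Saline 5 and 7 were again far above all others, whereas sham 1, rich in Tcf7l2 and Prkcd, had little of this factor. The saline group ran from 0 to 30.6 CPM with a median of 0.0438 CPM. The PYY3-36 libraries had 0.0397, 0.142, 0.861 and 0.186 CPM, and the liraglutide libraries 0.442, 0, 0, 0 and 0.0366 CPM. Medians were 0.158 CPM in BWM, 0.139 in RYGB, 0.0627 in lean, 0.0223 in PYY3-36 + liraglutide and 0 in sham, and all groups overlapped.

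Nwd2 encodes a protein with NACHT and WD-repeat domains, and unlike the first 2 genes it was present in each of the 65 libraries, from 6.53 to 159.7 CPM with a median of 16.5 CPM. The 5 highest libraries were saline 7 (159.7 CPM), saline 5 (87.5), saline 4 (64.5), sham 2 (51.9) and lean 2 (43.6), and sham 1 had 9.12 CPM. The highest 2 are those rich in Gpr151, and the following 3 are among the 6 libraries with the lowest hypothalamic sums.

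By group, Nwd2 ran from 14.2 through a median of 21.9 to 159.7 CPM in saline, from 14.8 through 20.5 to 43.6 CPM in lean and from 11.5 through 19.4 to 28.6 CPM in PYY3-36 + liraglutide. The PYY3-36 libraries had 14.1, 29.8, 15.5 and 19.6 CPM. RYGB ran from 11.4 through 17.3 to 27.8 CPM and BWM from 13.6 through 16.7 to 22.5 CPM. All of these neighbours overlapped within their spread. The liraglutide libraries had 16.2, 12.2, 13.7, 10.1 and 15.4 CPM, and sham ran from 6.53 through 12.7 to 51.9 CPM, so that liraglutide and sham had the lowest medians and still overlapped the rest.

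Scube1 encodes a secreted and cell-surface glycoprotein with CUB and EGF-like domains. Its level ran from 0.933 to 29.1 CPM with a median of 5.29 CPM, and the highest libraries were saline 4 (29.1 CPM), saline 7 (15.3), lean 2 (14.3), RYGB 4 (10.1) and saline 5 (9.70). Sham 1 had 2.39 CPM. Thus the library with the most Scube1 had Gpr151 at 0 counts.

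Scube1 ran from 1.40 through a median of 8.14 to 29.1 CPM in saline, from 3.91 through 6.94 to 14.3 CPM in lean and from 2.28 through 5.72 to 10.1 CPM in RYGB. It ran from 3.19 through 5.66 to 8.29 CPM in PYY3-36 + liraglutide and from 2.61 through 5.06 to 6.73 CPM in BWM. The PYY3-36 libraries had 4.37, 7.73, 5.29 and 5.43 CPM. These groups overlapped one another. The liraglutide libraries had 6.54, 3.51, 3.32, 5.29 and 2.78 CPM, and sham ran from 0.933 through 2.90 to 6.84 CPM. Sham had the lowest median, but its range overlapped that of every other group.

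Tcf7l2 encodes the transcription factor TCF4 of the Wnt and beta-catenin pathway, which stays high in thalamic neurons after development. It was highest in sham 1 (205 CPM), saline 7 (158), liraglutide 5 (102), saline 5 (90.1), RYGB 13 (62.8), PYY3-36 + liraglutide 10 (53.4) and BWM 7 (52.5), against a median of 18.8 CPM and a lowest value of 6.77 CPM in sham 2. Sham 1 stood above saline 7 here, and the libraries after them came from 5 groups and both batches.

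The Tcf7l2 levels ran from 8.82 through a median of 21 to 158 CPM in saline and from 6.77 through 18.8 to 205 CPM in sham. They ran from 10.5 through 18.8 to 62.8 CPM in RYGB, from 13.8 through 18 to 52.5 CPM in BWM, from 11.4 through 17.8 to 53.4 CPM in PYY3-36 + liraglutide and from 13.6 through 16.3 to 41.4 CPM in lean. The liraglutide libraries had 15.7, 24.7, 23.6, 46.8 and 102 CPM, and the PYY3-36 libraries had 16.1, 11.5, 21.2 and 27.1 CPM. Liraglutide had the highest median and lean the lowest, and every group overlapped every other.

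Prkcd encodes a calcium-independent protein kinase C that is abundant in thalamic relay neurons. It stood at 496 CPM in sham 1, 259 CPM in saline 7, 197 CPM in liraglutide 4, 100.0 CPM in RYGB 13 and 97.5 CPM in saline 5, against a median of 24.3 CPM and a lowest value of 11.3 CPM. Liraglutide 4, which had little of the hypothalamic markers, was the 3rd highest for Prkcd.

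By group, Prkcd ran from 19.7 through a median of 30.1 to 71.4 CPM in BWM, from 22.9 through 27.6 to 39.0 CPM in lean and from 15.4 through 26.9 to 100.0 CPM in RYGB. It ran from 11.4 through 24.3 to 259 CPM in saline, from 17.1 through 24 to 34.4 CPM in PYY3-36 + liraglutide and from 11.3 through 16.0 to 496 CPM in sham. The liraglutide libraries had 31.2, 19.1, 19.8, 197 and 59.4 CPM, and the PYY3-36 libraries had 22.3, 74.0, 24 and 26.2 CPM. The sham group held both the highest library and the lowest median, and all groups overlapped.

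Lef1 encodes a transcription factor of the same family as Tcf7l2 and is a partner of beta-catenin. Its levels spread least of the 3 thalamus genes, from 5.25 to 49.8 CPM with a median of 9.56 CPM, and the highest libraries were sham 1 (49.8 CPM), saline 7 (44.7), RYGB 13 (23.4), liraglutide 4 (22.3) and saline 5 (22.0). These are the same libraries that led in Prkcd, in nearly the same order.

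The Lef1 levels ran from 6.39 through a median of 11 to 18.8 CPM in BWM, from 7.71 through 9.87 to 23.4 CPM in RYGB and from 7.06 through 9.21 to 44.7 CPM in saline. They ran from 6.53 through 9.04 to 13.5 CPM in PYY3-36 + liraglutide, from 6.32 through 8.85 to 49.8 CPM in sham and from 7.88 through 8.64 to 9.92 CPM in lean. The 4 PYY3-36 libraries had 10.8, 6.17, 12.2 and 7.88 CPM and the 5 liraglutide libraries 10.1, 10.9, 5.25, 22.3 and 18.2 CPM. The lean group was the tightest and sham the widest, and the medians of the 8 groups lay closer together than the extremes within most of them.

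**Figure D1:**
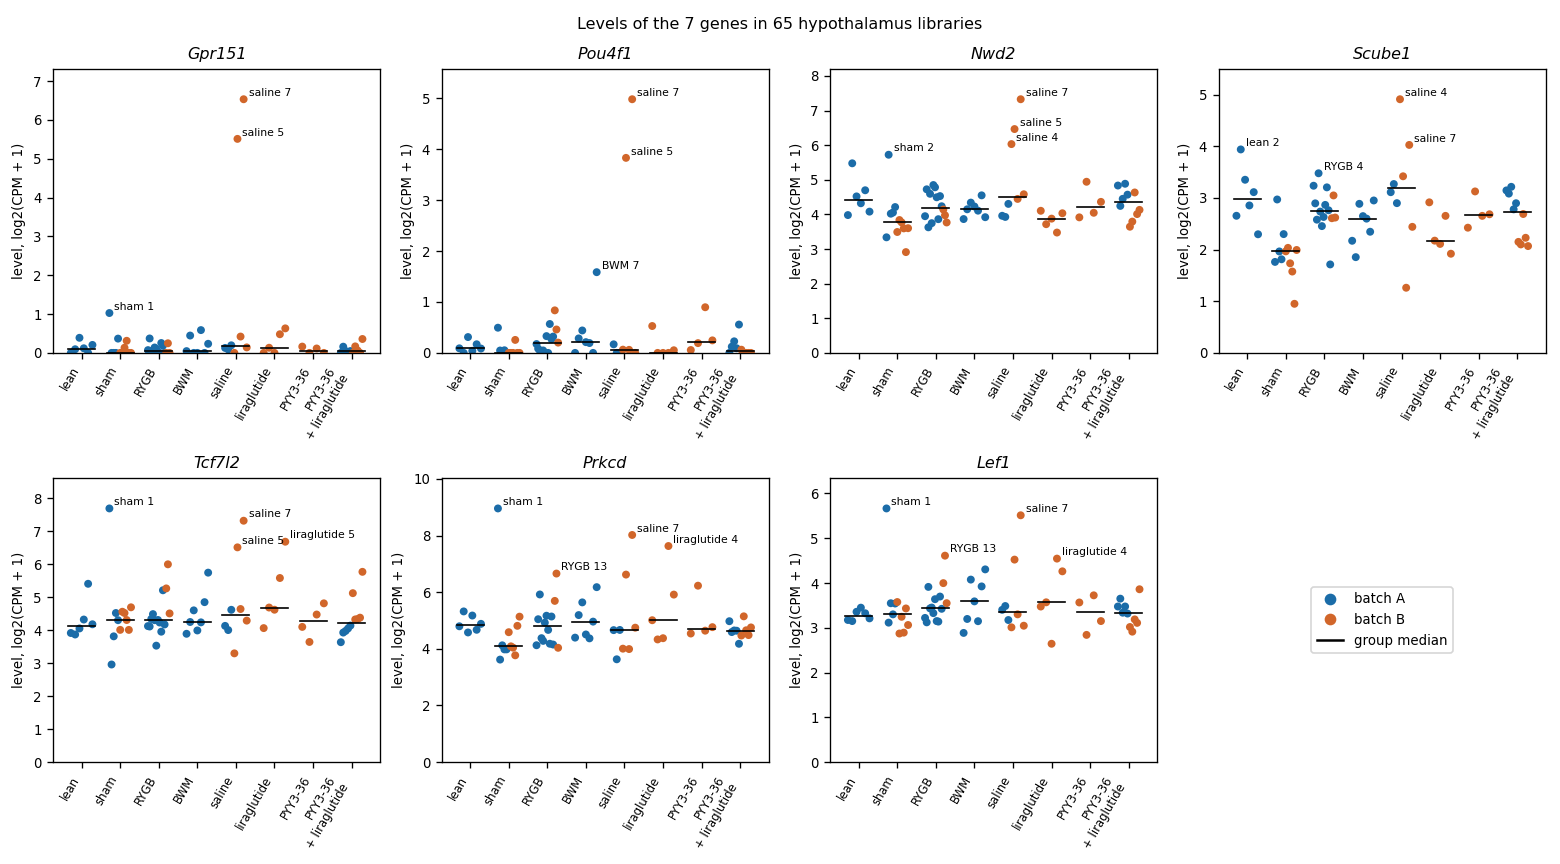
Levels of the 7 genes as log2(CPM + 1) in each library, by group, with batch A in blue, batch B in orange and a line at the group median. Gpr151 and Pou4f1 lie near 0 in most libraries and highest in saline 5 and 7, while Tcf7l2, Prkcd and Lef1 are highest in sham 1 and saline 7.

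Levels per kilobase of exon allow the genes to be set beside each other within a library. In saline 7 the levels per kilobase were 95.6 CPM for Prkcd, 65.7 for Gpr151, 50.6 for Tcf7l2, 22.1 for Nwd2, 8.10 for Pou4f1, 5.68 for Lef1 and 3.57 for Scube1. In sham 1 they were 183 for Prkcd, 65.6 for Tcf7l2, 6.33 for Lef1, 1.26 for Nwd2, 0.744 for Gpr151, 0.557 for Scube1 and 0.108 for Pou4f1. Both held Prkcd and Tcf7l2 at high levels, and they parted in the 4 genes treated here as habenula markers.

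Whole marker lists were then summed to see whether other genes of the same nuclei were high in the same libraries. Of the 16 genes of the medial habenula list, 10 were at least 2-fold above the median of the other 64 libraries in saline 7, 6 in saline 5 and 2 in sham 1, with median folds of 3.45, 1.77 and 0.638. Chrna3 and Chrnb4, nicotinic receptor subunits of medial habenula neurons, reached 45.7 and 9.09 CPM in saline 7 and 26.8 and 6.98 CPM in saline 5, against medians of 0.914 and 0.409 CPM. Syt15, a synaptotagmin, was at 19.9 CPM in saline 7 and 7.94 CPM in saline 5 with a median of 1.01 CPM. These 3 genes were chosen after their values were seen, as the list genes with the largest folds in saline 7. In sham 1 Chrna3 stood at 11.8 CPM, Chrnb4 at 1.29 CPM and Syt15 at 1.01 CPM, and the first 2 were above their medians there.

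The cholinergic genes of the same list behaved differently, and they too were chosen after their values were seen. Slc5a7, the choline transporter, stood at 103 CPM in saline 7, 29.4 CPM in saline 5 and 2.89 CPM in sham 1. Chat, which makes acetylcholine, stood at 61.9, 17.7 and 0.881 CPM in the same libraries, but its highest level was 78.1 CPM in lean 5, where Gpr151 was at 0 counts. These genes are also expressed by cholinergic neurons outside the habenula. The summed level of the list was 699 CPM in saline 7 (the highest of 65), 471 CPM in saline 5 (18th) and 274 CPM in sham 1 (64th), with a median of 395 CPM. Col16a1, its most abundant gene with a median of 104 CPM, was not high in saline 5 or 7 (66.3 and 69.9 CPM), and BWM 1 and sham 6, with Gpr151 at 0.0324 and 0 CPM, had the next highest sums (679 and 662 CPM). The sum of this list therefore did not single out the libraries rich in Gpr151. Chrna3, Chrnb4 and Syt15 were highest in saline 7 and next in saline 5, but they had been chosen on their folds in saline 7. Chrnb3, another nicotinic receptor subunit of the list, went otherwise. It reached at most 2.75 CPM in the saline group (saline 7), against 10.6 CPM in RYGB 7 and 8.76 CPM in BWM 7.

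The lateral habenula list (8 genes, the most abundant being Gap43) had a summed level of 1302 CPM in saline 7, 1251 CPM in saline 5 and 1216 CPM in sham 1 with a median of 990.1 CPM. Its highest sum, 1447 CPM, was in PYY3-36 + liraglutide 10. In saline 7 1 of the 8 genes was at least 2-fold above the other libraries, in saline 5 none and in sham 1 2, namely Necab1 (99.1 CPM against a median of 12.4 CPM) and Chrm3 (41.7 against 17.5 CPM), both named after their values were seen.

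The list of thalamic relay nuclei (18 genes, the most abundant being Calb2) gave the clearest contrast. Its sum was 2687 CPM in sham 1, 1686 CPM in saline 7, 1413 CPM in liraglutide 5, 1381 CPM in RYGB 13 and 1244 CPM in saline 5, with a median of 692 CPM. At least 2-fold above the other libraries were 17 of the 18 genes in sham 1, 13 in saline 7 and 11 in saline 5, with median folds of 6.78, 3.88 and 2.25. Shox2, a homeodomain factor of thalamic neurons, stood at 60.1 CPM in sham 1, 22.3 CPM in saline 7 and 7.64 CPM in saline 5 with a median of 0.328 CPM. Ptpn3, a tyrosine phosphatase, stood at 318, 119 and 47.4 CPM with a median of 11 CPM, and was named after its values were seen. Sham 1 thus led in the thalamic list as it did in Tcf7l2, Prkcd and Lef1, and it ranked second to last in the medial habenula sum.

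**Figure D2:**
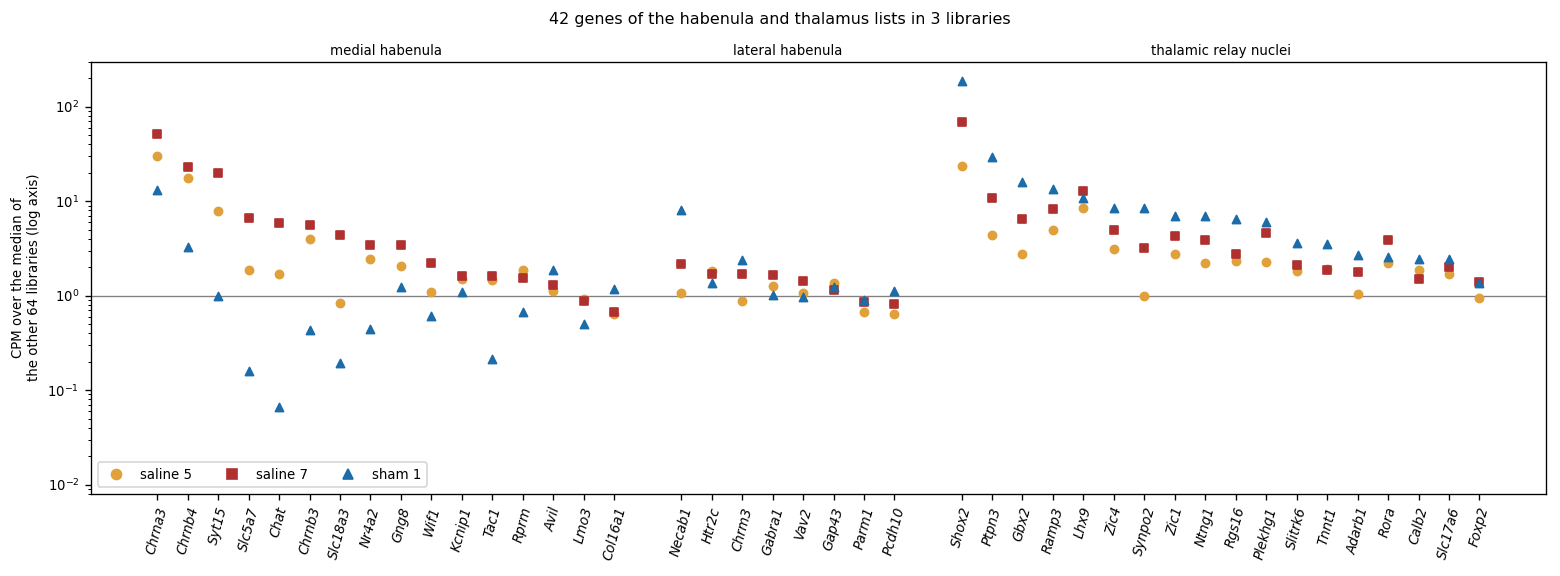
Each of the 42 genes of the habenula and thalamus lists in saline 5, saline 7 and sham 1, as CPM over the median of the other 64 libraries, on a log axis with a line at 1. Thalamic genes lie above the line in all 3 libraries, whereas the cholinergic genes Slc5a7, Chat and Slc18a3 lie below it in sham 1 and above it in saline 7.

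Lists of neighbouring tissues were summed in the same way. The pineal list (9 genes, most abundant Rom1) had a median of 12.7 CPM and was highest in sham 1 at 26.6 CPM, where Tph1, which starts serotonin synthesis, reached 12.7 CPM, while saline 5 and 7 had sums of 14.1 and 12 CPM. Of its defining genes Crx was at 0 counts in 57 libraries and Gngt1 in 49, so 7 of the 9 passed the filter. The subcommissural organ list (2 genes, most abundant Sspo) had a median of 2.11 CPM and stood at 2.94, 1.55 and 2.55 CPM in saline 5, saline 7 and sham 1. For the choroid plexus (8 genes, most abundant Ttr) the values were 586, 115 and 76.7 CPM with a median of 60.6 CPM and a highest sum of 3626 CPM in RYGB 6. Their part in the levels of the 7 genes was not tested.

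For the striatum list (6 genes, most abundant Ppp1r1b) the sums in saline 5, saline 7 and sham 1 were 145, 254 and 122 CPM with a median of 267 CPM, and BWM 1 had the highest, 4072 CPM. The midbrain list (5 genes, most abundant Slc6a3) was at 0.483, 1.6 and 1.2 CPM with a median of 1.69 CPM and a highest sum of 165 CPM in PYY3-36 3. Slc6a3, the dopamine transporter, was at 0 counts in saline 5, saline 7 and sham 1. For the anterior pituitary (7 genes, most abundant Lhb) the sums were 4.39, 3.15 and 4.40 CPM with a median of 5.79 CPM, and BWM 5 stood at 76751 CPM and BWM 7 at 1124 CPM. Fshb, Gh1, Pou1f1 and Prl, which define pituitary cells, were at 0 counts in saline 5, saline 7 and sham 1. BWM 1, sham 10 and sham 6, with striatum sums of 4072, 3683 and 3256 CPM, also had high medial habenula sums (679, 613 and 662 CPM). Saline 4 and saline 7, with medial habenula sums of 641 and 699 CPM, had striatum sums of 583 and 254 CPM. The part of striatal tissue in the medial habenula sum was not tested.

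The remaining lists describe cells found all over the brain. Meninges (5 genes, most abundant Col1a1) summed to 162 CPM in saline 5, 232 CPM in saline 7 and 15.4 CPM in sham 1, the lowest of all, with a median of 86.9 CPM and a highest sum of 912 CPM in BWM 7. Brain endothelium (5 genes, most abundant Slc2a1) stood at 483, 627 and 389 CPM with a median of 463 CPM. Astrocytes (4 genes, most abundant Gfap) stood at 2194, 1889.8 and 1093 CPM with a median of 1958 CPM. Differentiating oligodendrocytes (3 genes, most abundant Bcas1) stood at 427, 512 and 396 CPM with a median of 426 CPM, and microglia (4 genes, most abundant Csf1r) at 177, 154 and 113 CPM with a median of 174 CPM. Sham 1 was low in astrocyte, microglial and meningeal genes beside its high thalamic genes, and saline 7 ranked 2nd of 65 in endothelial genes.

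Because Tcf7l2 and Lef1 act in the Wnt pathway, 16 other genes of that pathway were examined, of which Ctnnb1, which encodes beta-catenin, was the most abundant. Their sum was 1137 CPM in sham 1 (the highest), 1026 CPM in saline 7 and 954 CPM in saline 5, with a median of 939 CPM. Axin2, a feedback target of the pathway, was at 27.9 CPM in sham 1, 19.2 CPM in saline 7 and 17.3 CPM in saline 5 with a median of 18.5 CPM, and was named after its values were seen. Tcf7l2 was selected on its levels in these same libraries, so its distance from its median is not compared with that of this sum.

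Promoters are shown for Tcf7l2, Lef1 and Prkcd, the 3 thalamus genes, and for Pou4f1 of the habenula genes. RefSeq sequences of build GRCr8, covering 250 bases before to 50 bases after each start, were at hand for 6 of the 7 genes (8 entries among 33469 promoters), and Gpr151 had no entry. Capitals mark 3 motifs on either strand: the core of TCF/LEF sites CTTTG (or CAAAG), the GC box GGGCGG (or CCGCCC) and the TATA box TATAAA (or TTTATA). The POU site ATTAAT was counted but not marked. The Tcf7l2 promoter lies at chr1:264791085-264791384 (plus), that of Lef1 at chr2:222340463-222340762 (plus), that of Prkcd at chr16:5805790-5806089 (minus) and that of Pou4f1 at chr15:87674594-87674893 (minus).
Tcf7l2: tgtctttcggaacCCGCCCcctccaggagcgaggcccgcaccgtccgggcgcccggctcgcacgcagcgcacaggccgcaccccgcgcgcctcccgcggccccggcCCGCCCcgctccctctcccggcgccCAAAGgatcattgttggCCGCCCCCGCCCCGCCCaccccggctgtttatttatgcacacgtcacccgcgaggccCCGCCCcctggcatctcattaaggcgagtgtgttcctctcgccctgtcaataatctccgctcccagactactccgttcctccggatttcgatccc
Lef1: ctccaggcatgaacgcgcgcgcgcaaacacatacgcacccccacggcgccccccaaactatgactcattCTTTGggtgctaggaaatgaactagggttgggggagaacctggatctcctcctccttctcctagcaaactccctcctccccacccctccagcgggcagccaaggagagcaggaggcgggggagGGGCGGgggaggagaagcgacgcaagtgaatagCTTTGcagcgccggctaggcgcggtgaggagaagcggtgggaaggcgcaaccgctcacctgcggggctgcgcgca
Prkcd: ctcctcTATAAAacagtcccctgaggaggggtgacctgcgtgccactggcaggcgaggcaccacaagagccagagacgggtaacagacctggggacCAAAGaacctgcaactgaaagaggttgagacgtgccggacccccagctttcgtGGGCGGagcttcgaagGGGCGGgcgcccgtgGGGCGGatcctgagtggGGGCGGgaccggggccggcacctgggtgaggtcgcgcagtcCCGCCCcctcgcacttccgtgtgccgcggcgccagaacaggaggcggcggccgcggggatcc
Pou4f1: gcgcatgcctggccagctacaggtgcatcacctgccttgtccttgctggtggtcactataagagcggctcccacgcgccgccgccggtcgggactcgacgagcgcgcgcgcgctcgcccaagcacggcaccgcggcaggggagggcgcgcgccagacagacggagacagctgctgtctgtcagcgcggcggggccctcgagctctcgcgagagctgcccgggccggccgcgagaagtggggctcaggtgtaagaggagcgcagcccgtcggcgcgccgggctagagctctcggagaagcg
The Tcf7l2 window held 1 CTTTG core and 6 GC boxes, the Lef1 window 2 cores and 1 GC box, the Prkcd window 1 core, 5 GC boxes and 1 TATA box, and the Pou4f1 window none of the motifs. The core was in 6 of the 8 entries and in 53.8% of all promoters, the GC box in 4 and in 33.1%, and the TATA box in 3 and in 14.2%. The longer TCF/LEF motifs CTTTGAA (or TTCAAAG), in 5.4% of promoters, and CTTTGAT (or ATCAAAG), in 3.63%, both of which contain the core, were in none of the 8 entries, nor was ATTAAT, in 5.21%. The G and C content was 70.3% for Tcf7l2, 64.7% for Lef1, 69.0% for Prkcd and 72.3% for Pou4f1. These matches describe the letters in a window and say nothing of binding.

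How the 7 genes varied together was described with Pearson's r of log2(CPM + 1) and Spearman's rho, within batch A (37 libraries) and within batch B (28 libraries). The libraries of a batch share the period of handling and several groups. The 3 thalamus genes had a median r of 0.809 in batch A and 0.787 in batch B, with median rho of 0.37 and 0.511. Prkcd and Lef1 had r of 0.818 in A and 0.787 in B, and Tcf7l2 and Lef1 had 0.809 and 0.817. Without sham 1 the median in A was 0.532, and without saline 5 and 7 the median in B was 0.645. Without the same libraries rho of the 3 pairs lay between 0.257 and 0.37 in A and between 0.261 and 0.454 in B. The thalamus genes therefore varied together also among the libraries that did not stand apart, though less closely, and only weakly by rank.

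The 4 habenula genes gave a median r of -0.11 in batch A and 0.783 in batch B, where the median rho was 0.337. Gpr151 and Pou4f1 had an r of 0.967 in batch B but a rho of 0.151, and without saline 5 and 7 the r was -0.127, so the relation rested on those 2 libraries. Without both libraries the median of the habenula pairs in B was 0, and without saline 7 alone it was 0.616. Nwd2 and Scube1 were the exception, with r of 0.424 in A and 0.775 in B, and 0.351 and 0.765 without the 3 libraries. Between habenula and thalamus genes the median r was 0.093 in A, between pairs with Gpr151 or Pou4f1 (0.384 to 0.583) and pairs with Nwd2 or Scube1 (-0.439 to -0.198), and 0.535 in B, and 0.141 in B without saline 5 and 7.

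**Figure D3:**
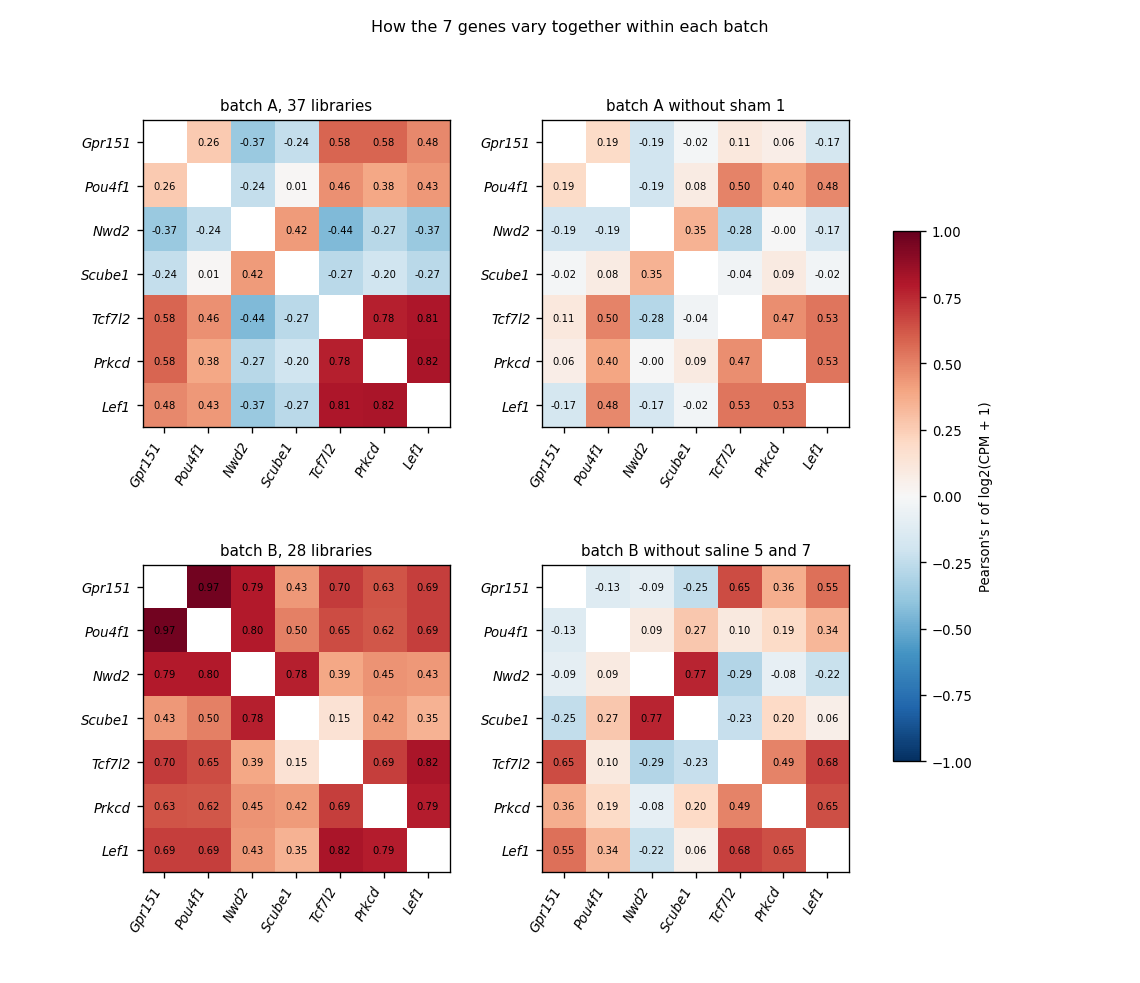
Pearson's r of log2(CPM + 1) for each pair of the 7 genes within batch A and batch B, with all libraries on the left and without saline 5, saline 7 and sham 1 on the right. The block of Tcf7l2, Prkcd and Lef1 keeps positive values in all 4 panels, while Gpr151 and Pou4f1 go from 0.967 to -0.127 in batch B.

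Nwd2 was also set against the summed level of 6 genes of cortex and hippocampus (most abundant Lamp5), whose median sum was 97.9 CPM. The sum was 1900.3 CPM in sham 2, 1333 CPM in saline 4, 1220.5 CPM in RYGB 6, 1125 CPM in lean 2 and 834 CPM in PYY3-36 2, and it was 58.1, 88.2 and 54.9 CPM in saline 5, saline 7 and sham 1. In batch A the r of Nwd2 with this sum was 0.641 (rho 0.512), and in batch B it was 0.199 (rho 0.162) with all libraries and 0.57 (rho 0.271) without saline 5 and 7. For Scube1 the values were -0.028 in A and 0.309 in B. Of the 5 highest libraries for Nwd2, 3 thus had high levels of cortical genes and few hypothalamic markers, and the other 2 had high Gpr151. With the medial habenula sum Nwd2 had an r of 0.119 in A and 0.275 in B, and Scube1 0.016 and 0.166. Without saline 5, saline 7 and sham 1 these were -0.001 and -0.003 for Nwd2, and -0.106 and 0.002 for Scube1. Neither gene therefore followed that sum among the other libraries.

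**Figure D4:**
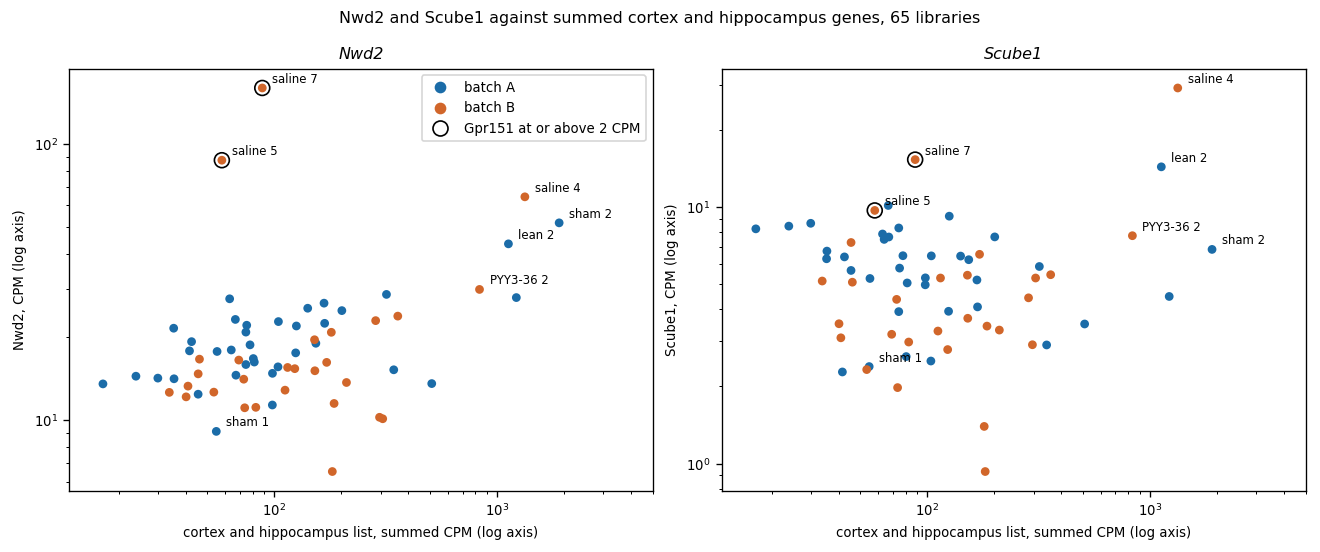
Nwd2 and Scube1 in CPM against the summed CPM of 6 cortex and hippocampus genes in each of 65 libraries, both axes on a log scale, with batch A in blue and batch B in orange. Saline 5 and 7 (circled) combine high Nwd2 with cortical sums of 58.1 and 88.2 CPM, under the median of 97.9 CPM. Saline 4, sham 2 and lean 2 are high on both axes for Nwd2.

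Against the sum of the thalamic relay list, Lef1 had an r of 0.818 in batch A and 0.748 in batch B, and 0.555 and 0.633 without the 3 libraries. Tcf7l2 had 0.707 and 0.801 with all libraries, and 0.321 and 0.714 without the 3. Prkcd had 0.656 and 0.572, and 0.166 and 0.378 without them. Other lists came close outside these libraries. Without them Lef1 had an r of 0.513 in A and 0.177 in B with the hypothalamus sum. With the midbrain sum it had 0.293 and 0.626, and Prkcd had 0.258 and 0.446. Lef1 and Prkcd were thus not tied to the thalamic list alone. The medial habenula sum was also high in several libraries rich in striatum genes. With it the r of Tcf7l2, Prkcd and Lef1 lay between -0.443 (Lef1 in A) and -0.029 (Lef1 in B). Without the 3 libraries it was -0.375 for Tcf7l2, -0.352 for Prkcd and -0.39 for Lef1 in B, and 0.238 for Tcf7l2, 0.009 for Prkcd and -0.303 for Lef1 in A. Gpr151 had an r with the medial habenula sum of -0.203 in A and 0.289 in B, and with the thalamic sum of 0.462 and 0.57. Without saline 5 and 7 the latter was 0.634 in B, over 26 libraries in which Gpr151 was near its floor, and that with the medial habenula sum was -0.424. In A without sham 1 the r with the thalamic sum was -0.157. Pou4f1 had an r with the medial habenula sum of -0.328 in A and 0.267 in B, and of -0.288 and -0.341 without the 3 libraries. With the midbrain sum it had 0.3 and 0.018, and 0.328 and 0.717 without them. Outside the 3 libraries Pou4f1 thus did not follow the medial habenula sum. The part of midbrain tissue in its level was not tested.

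The genes most like Gpr151 were taken as the 10 with the highest value of the lower of the r within batch A and the r within batch B, over all 65 libraries, members aside. They were Mroh4, Lmod2, LOC100909784, LOC108352941, Loxhd1, Ppm1j, Smpx, Il12rb2, Shox2 and Best3, with lower r from 0.606 to 0.730. Lmod2 and LOC100909784 had equal values in the likeness table, so their reads cannot be assigned to 1 of the 2. Best3 was highest in BWM 5 and the other 9 in sham 1, as Mroh4 with 5.79 CPM in sham 1, 2.76 CPM in BWM 2 and a median of 0.0337 CPM. In batch B alone, looked at after the values were seen, Chrna3 (r of 0.915) and Chrnb4 (0.901) were among the 10 most like Gpr151, beside Syt15 (0.899), Htr5b (0.923) and Rspo4 (0.928). In batch A these 5 had r of 0.481, 0.222, 0.0262, -0.111 and -0.0782.

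Members aside, the 10 genes most like Tcf7l2 were Shox2 (r of 0.856 in A and 0.895 in B), Il12rb2 (0.833 and 0.874), Lmod2, LOC100909784, Smpx, LOC102551791, LOC108351593, LOC108352941, Adra1b and Ccdc136, and all 10 were highest in sham 1. Adra1b, an adrenergic receptor, had a median of 9.20 CPM and stood at 39.6 CPM in sham 1 and 30.3 CPM in saline 7. Ccdc136 had a median of 97.3 CPM and stood at 349.7 CPM in sham 1 and 183 CPM in saline 7. Ranked in the same way among 21871 genes, Lef1 was 3rd and Prkcd 12th for Tcf7l2, Gpr151 was 39th and Pou4f1 114th, and Scube1 and Nwd2 were at 18189 and 21292.

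Groups were compared with edgeR's quasi-likelihood test in 1 model of all 65 libraries with batch as a term. A gene was called when its Benjamini-Hochberg adjusted p over all genes tested was under 0.05 and its absolute log2 fold change was over 1. SE of edgeR values was taken as the absolute log2 fold change over the square root of the test's F statistic. For DESeq2 values it is the standard error that DESeq2 gives. Comparisons against sham share the 11 sham libraries and those against saline the 8 saline libraries, so each comparison's own values are set side by side. The members were selected on values that enter these comparisons, so a call on a member restates that selection, and nothing is read from which or how many of them were called.

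For RYGB against sham, which asks what the bypass adds to an operation, 518 of 21871 genes were called (2.37%), 437 higher and 81 lower, and no member was. Prkcd had a log2 fold change of -0.90 (SE 0.50), Tcf7l2 -0.60 (SE 0.40), Lef1 -0.16 (SE 0.27), Nwd2 0.17 (SE 0.28) and Scube1 0.95 (SE 0.27). The 3 thalamus genes turned with sham 1: without saline 5, saline 7 and sham 1 the values were 1.01 (SE 0.31) for Prkcd, 0.59 (SE 0.27) for Tcf7l2 and 0.38 (SE 0.18) for Lef1. In that setting 723 of 21798 genes were called (3.32%), with Pou4f1 and Prkcd among them. Leaving out sham 1 alone gave 734 called genes and a log2 fold change of 1.13 for Prkcd, then called, and 0.68 for Tcf7l2. Without sham 5 the count was 337. Scube1 crossed the call thresholds without RYGB 11 (1.02) or without sham 2 (1.15).

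Within batch A the same comparison gave negative log2 fold changes for the thalamus genes, -1.98 (SE 0.53) for Prkcd, -1.49 (SE 0.44) for Tcf7l2 and -0.82 (SE 0.28) for Lef1, and 294 of 21775 genes were called (1.35%), Prkcd included. Within batch B the signs were opposite, with 1.39 (SE 0.75) for Prkcd, 1.06 (SE 0.62) for Tcf7l2 and 1.02 (SE 0.46) for Lef1, and 607 of 20628 genes were called (2.94%), with no member. Sham 1 belongs to batch A and RYGB 13 to batch B. In a model with an interaction of group and batch the log2 fold change in B minus that in A was 3.38 (SE 0.93) for Prkcd, 2.54 (SE 0.76) for Tcf7l2 and 1.84 (SE 0.52) for Lef1. By edgeR's quasi-likelihood test of that interaction 0 of 21871 genes passed an adjusted p of 0.05, and 2268 had an unadjusted p under 0.05. DESeq2 was not run for the interaction.

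In BWM against sham, which asks what weight loss without the bypass does, 60 of 21871 genes were called (0.274%) and no member was. Prkcd stood at -0.81 (SE 0.62) with all libraries and at 1.22 (SE 0.37) without the 3, and Tcf7l2 at -0.41 (SE 0.49) and 0.83 (SE 0.32). The count was 238 without BWM 1, 133 without BWM 2, 109 without sham 11, 39 without BWM 7 or sham 8, 24 without sham 3, 23 without sham 2, 22 without sham 5 and 4 without BWM 5. It was 171 by DESeq2, 273 within batch A, 920 without the batch term and 1 with replicate number as a block. The called genes included the anterior pituitary genes Gh1 (10.65), Prl (10.35), Pou1f1 (9.31), Fshb (8.41) and Lhb (2.60). The choroid plexus genes Aqp1 (4.12) and Kl (2.31) were also called. For RYGB against BWM 60 genes were called (0.274%), with no member among them, and the log2 fold changes were -0.09 (SE 0.59) for Prkcd and -0.20 (SE 0.47) for Tcf7l2. That count was 39 without RYGB 12, 37 without RYGB 13, 36 without RYGB 5 and 2 without BWM 5. All 60 were lower in RYGB, among them the anterior pituitary genes Prl (-12.19), Gh1 (-11.94), Pou1f1 (-9.67), Fshb (-7.46) and Lhb (-2.55). The part of pituitary tissue in these calls was not tested.

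In lean against sham 0 of 21871 genes were called by edgeR (0%), with 2674 at an unadjusted p under 0.05 and 23 called by DESeq2. Scube1 had a log2 fold change of 1.23 (SE 0.34) and Prkcd -1.07 (SE 0.66), and without the 3 libraries 1.15 (SE 0.35) and 0.96 (SE 0.39). Without sham 1 the count was 207, and without lean 6 it was 259, with Scube1 called at 1.36.

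Against saline the 2 libraries rich in habenula genes sit in the control group. For PYY3-36 + liraglutide against saline 1 of 21871 genes was called (0.00457%), namely Gpr151 with a log2 fold change of -7.73 (SE 1.28). Without saline 7 it was -6.43 and no gene was called. Within batch B it was -8.29 (SE 1.65) and within batch A -1.31 (SE 1.51), and neither batch alone called a gene. Without saline 5, saline 7 and sham 1 it was -1.0 (SE 1.0), and edgeR called 0 of 21798 genes (0%), with 426 at an unadjusted p under 0.05, while DESeq2 called 19 genes with all libraries, Gpr151, Pou4f1 and Nwd2 among them. Nwd2 stood at -1.46 (SE 0.34) with all libraries and at -0.49 (SE 0.28) without the 3, Scube1 at -1.03 (SE 0.31) and -0.87 (SE 0.33), and Tcf7l2 at -0.93 (SE 0.48) and 0.17 (SE 0.32). For Nwd2 the value was 0.58 (SE 0.37) within batch A and -2.15 (SE 0.38) within batch B. In a model with an interaction of group and batch, its log2 fold change in B minus that in A was -2.73 (SE 0.56). By edgeR's quasi-likelihood test of that interaction 0 of 21871 genes passed an adjusted p of 0.05, and 710 had an unadjusted p under 0.05.

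For PYY3-36 against saline edgeR called 0 of 21871 genes (0%), 1649 had an unadjusted p under 0.05 and DESeq2 called 12 (Gpr151 among them), and without PYY3-36 1 edgeR called 1. Nwd2 had a log2 fold change of -1.32 (SE 0.45), and -0.23 (SE 0.35) without the 3 libraries. For liraglutide against saline edgeR called 0 of 21871 genes (0%), 456 had an unadjusted p under 0.05 and DESeq2 called 14 (Nwd2 among them). Nwd2 stood at -1.87 (SE 0.42) and without the 3 libraries at -0.79 (SE 0.34), and Prkcd at 0.14 (SE 0.70) and 1.52 (SE 0.45). Both groups were handled in batch B alone, as were saline 5 and 7.

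The 2 control groups were compared as well. In sham against saline 2 of 21871 genes were called (0.00914%), both members: Scube1 with a log2 fold change of -1.88 (SE 0.31) and Nwd2 with -1.79 (SE 0.34). Without the 3 libraries Scube1 stood at -1.68 (SE 0.33) and Nwd2 at -0.76 (SE 0.28), and 63 of 21798 genes were called (0.289%), Scube1 among them. Within batch A, Scube1 was at -1.03 (SE 0.36) and Nwd2 at 0.46 (SE 0.37). Within batch B they were at -2.34 (SE 0.45) and -2.72 (SE 0.37), and 1 of 20628 genes was called (0.00485%), Nwd2. The count was 1 without saline 5 (Nwd2 then at -1.62), saline 7 (-1.25), sham 8 (-1.75), sham 9 (-1.74), sham 10 (-1.67) or sham 11 (-1.74). Without saline 1, 2, 3 or 8 the count was 4, without saline 6 it was 5 and without sham 1 it was 99. Scube1 was at -1.41 without saline 4, its highest library. Gpr151 stood at -6.15 (SE 1.28) and Pou4f1 at -5.77 (SE 1.23) with all libraries. DESeq2 called 29 genes, Gpr151, Pou4f1, Nwd2 and Scube1 among them, and edgeR without a batch term called those 4.

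**Figure D5:**
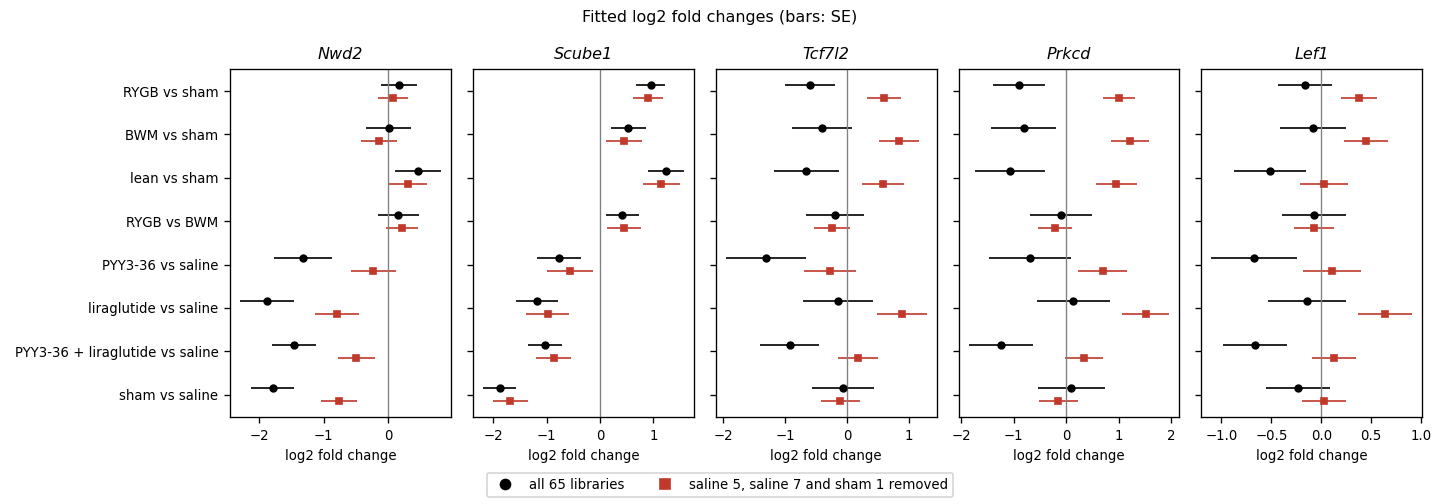
Fitted log2 fold changes with SE bars for Nwd2, Scube1, Tcf7l2, Prkcd and Lef1 in 8 comparisons, with all 65 libraries in black and without saline 5, saline 7 and sham 1 in red. Prkcd and Tcf7l2 change sign against sham, and Nwd2 moves toward 0 against saline, when the 3 libraries are left out.

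Between batch B and batch A, 1094 of 21871 genes were called (5%) and no member was. Tcf7l2 had the largest value among the thalamus genes, 0.49 (SE 0.34), and 1.01 without sham 1, where it was called.

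The habenula and thalamus lists hold 42 genes beside the 7. In RYGB against sham 2 of the 42 were called, against 2.37% of all genes, and 9 had an unadjusted p under 0.05 (6570 of all 21871 genes), with a median log2 fold change of -0.13 against -0.02 over all genes. Chrnb3, a nicotinic receptor subunit of medial habenula and dopamine neurons, rose by 4.89 on the log2 scale (SE 1.14) with an adjusted p of 0.0049 by edgeR's quasi-likelihood test. It ran from 0 through a median of 0.840 to 10.6 CPM in RYGB, and from 0 through 0 to 0.384 CPM in sham. The groups overlapped at the low end, with RYGB 7 highest. Within batch A the RYGB median was 0.826 CPM and the sham median 0, and within batch B 0.902 and 0 CPM, where it was not called. With both batches pooled, sham was the lowest group for Chrnb3: medians were 2.65 CPM in PYY3-36, 1.65 in BWM, 1.58 in lean and 1.19 in PYY3-36 + liraglutide, all above RYGB, and 0.183 in liraglutide and 0.139 in saline. This order did not hold within batch B. There PYY3-36 + liraglutide had a median of 0 and a highest value of 0.305 CPM, under RYGB and level with sham, against a median of 3.29 CPM in batch A. Of the 5 midbrain genes 4 were called in the same comparison: Slc6a3, the dopamine transporter, at 7.26 (SE 1.58), Foxa1 at 3.04 (SE 0.97), En1 at 2.83 (SE 0.81) and En2 at 2.61 (SE 0.79), all named after their values were seen. The same 4 were called within batch B (Slc6a3 at 7.30, Foxa1 at 5.81, En2 at 3.87 and En1 at 3.61), by DESeq2 and without saline 5, saline 7 and sham 1, and none of the 5 within batch A or with replicate number as a block. Slc6a3 was also highest among RYGB rats in RYGB 7 (136 CPM) and had medians of 1.06 CPM in RYGB and 0.0966 CPM in sham. The part of midbrain tissue in the Chrnb3 result was not tested.

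Tnnt1, a troponin also present in thalamic neurons, fell by 1.09 (SE 0.38, adjusted p of 0.0468 by edgeR's quasi-likelihood test) in RYGB against sham. It ran from 1.42 through a median of 2.06 to 6.26 CPM in RYGB and from 1.61 through 5.35 to 11.8 CPM in sham. The groups overlapped, and the highest library of all was PYY3-36 2 (49.8 CPM). In the same fit the pineal gene Tph1 was called lower in RYGB (-2.33, SE 0.62) and the choroid plexus gene Kl higher (2.47, SE 0.46). The part of these tissues in the Tnnt1 result was not tested. Tnnt1 lost its call, and the list count was 1, without RYGB 1 (-1.09), 2 (-1.07), 4 (-1.06), 5 (-1.05), 6 (-1.05), 7 (-1.07), 8 (-1.06), 12 (-1.04), 13 (-0.99) or 14 (-1.08) and without sham 2 (-1.13), 4 (-1.06) or 5 (-1.14). It also lost its call without sham 1 (-0.79), 6 (-1.08), 8 (-1.05) or 10 (-0.99), and without RYGB 11 the list count was 4. Chrnb3 was called in each of the fits that left out 1 library. Without saline 5, saline 7 and sham 1 the called list genes were Chrnb3, Shox2 and Synpo2, all higher in RYGB (Shox2 by 2.41, SE 0.85), and the median log2 fold change of the thalamic list went from -0.44 to 0.33. Within batch A 6 list genes were called, Chrnb3 and Parm1 higher and Lhx9, Ramp3, Ptpn3 (-2.54, SE 0.59) and Shox2 (-4.40, SE 1.03) lower, and within batch B 1, Ptpn3 (2.40, SE 0.73). Of all genes, 294 of 21775 were called within batch A (1.35%) and 607 of 20628 within batch B (2.94%). DESeq2 called Chrnb3, Tnnt1 and Shox2 (-2.96, SE 1.02) with all libraries, where edgeR did not call Shox2. Over all genes DESeq2 called 626 of 33452. Shox2 is named by the rule on likeness, and Synpo2 was named after its values were seen.

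In the other comparisons edgeR called 0 of the 42 list genes. The numbers at an unadjusted p under 0.05 were 5 for BWM against sham, where 2695 of all 21871 genes had one, 7 for lean against sham (2674 of all genes) and 2 for RYGB against BWM (2751). Against saline they were 7 for PYY3-36 (1649 of all genes), 4 for liraglutide (456), 11 for PYY3-36 + liraglutide (554) and 7 for sham (2812), and for batch B against A 12 (10434). DESeq2 called 1 list gene in BWM against sham (Chrnb3), 1 in PYY3-36 + liraglutide against saline (Chrna3), 1 in sham against saline (Chrnb4) and 1 between batches (Synpo2), these being named from their calls, and 0 in the others. In the same order it called 171, 19, 29 and 1555 of 33452 genes over all. With edgeR 1 list gene was called in BWM against sham without BWM 1, BWM 2 or sham 11, and 1 in lean against sham without lean 6. In sham against saline 2 were called without sham 1. Between batches 1 was called without RYGB 6, 12 or 13, PYY3-36 + liraglutide 5, saline 3 or 7, or sham 1, 2 or 5, and 2 without sham 4.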

How the data were processed

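RNA of 65 rat hypothalami was sequenced, 1 library per animal. The authors trimmed reads with cutadapt (more than 1 version), aligned them to Rnor_6.0 with STAR 2.7.2b and counted them per RefSeq gene with featureCounts 1.6.4, sharing ambiguous reads, so the deposited values are estimated counts. Of the values above 0, 30.3% were not whole at a tolerance of 1e-06. Of all values of the 7 genes, zeros included, 3.08% were not whole. The expected counts were rounded to whole numbers, which moved no library total by more than 0.00104%. Groups were compared in R 4.3.3 with edgeR 4.0.16 (trimmed mean of M-values, filter on low counts at 10, robust quasi-likelihood fit with batch as a term), and DESeq2 1.42.0, each batch alone, other filters, a replicate block, no batch term and leaving out each library were run as alternatives. The fit was tested on simulated data. Levels and correlations were computed with Python 3.11.15, pandas 2.3.3 and numpy 2.4.6, on log2(CPM + 1), and plots drawn with matplotlib 3.10.9.

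The members and 17 marker lists (138 genes) were chosen with earlier results of these data known. Genes named are the 7 members, habenula and thalamus list genes called in any comparison (fits without 1 library apart), the most abundant gene of each list and the 10 genes most like Gpr151 and Tcf7l2, and any other gene was named after its values were seen. A count of 3 was taken as the floor.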

Additional observations from a re-analysis of the deposited data

Results flagged for a closer look

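In 42 combinations of a gene and a group of 4 to 10 rats, the highest or lowest animal was compared with its nearest neighbour, as a share of the range of the group. In 13 combinations that share was above Dixon's 95% critical value. Chance alone gives this in about 1 in 20 groups of normally distributed values. The shares were taken on CPM without logarithms, some of them near the floor, so that rate need not hold here. The 7 genes were also chosen with some of these high libraries known, so the number is not set against that rate. All 13 were high animals, and their causes were not tested.

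Of the habenula genes, Pou4f1 had 4 such animals: saline 7 with a share of 0.568 (30.6 CPM, next 13.2), BWM 7 with 0.821 (2.0 CPM, next 0.357), liraglutide 1 with 0.917 (0.442 CPM, next 0.0366) and PYY3-36 + liraglutide 5 with 0.638 (0.470 CPM, next 0.171). Gpr151 stood apart in PYY3-36 + liraglutide 10 with 0.562 (0.282 CPM, next 0.123), close to its floor. It did not do so in saline, where saline 5 and saline 7 were both high. Nwd2 stood apart in lean 2 with 0.646 (43.6 CPM, next 25.0).

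Of the thalamus genes, Tcf7l2 stood apart in BWM 7 with 0.639 (52.5 CPM, next 27.8), in lean 5 with 0.806 (41.4 CPM, next 19.0) and in PYY3-36 + liraglutide 10 with 0.468 (53.4 CPM, next 33.8). Prkcd did so in liraglutide 4 with 0.774 (197 CPM, next 59.4), in PYY3-36 2 with 0.924 (74.0 CPM, next 26.2) and in saline 7 with 0.652 (259 CPM, next 97.5). Lef1 did so in saline 7 with 0.603 (44.7 CPM, next 22.0). RYGB and sham, with more than 10 rats each, were not examined this way, so sham 1 is not among them.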

How the results depend on the processing

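Of 1904 log2 fold changes of the members under alternatives, 1852 kept their side of the call thresholds, whatever their sign, 16 lost a call, 33 gained one and 3 had the opposite sign with a call in 1 of the 2 fits. Those 3 were 0.46 for Nwd2 in sham against saline within batch A, and 1.01 and 1.13 for Prkcd in RYGB against sham without saline 5, saline 7 and sham 1 and without sham 1 alone, where fits without 1 library lay between -1.13 and 1.13. Values with no call turned too, as in RYGB against sham without sham 1 for Tcf7l2 (-0.60 to 0.68) and Lef1 (-0.16 to 0.43). Unless construction gives it (fewer libraries, more genes), the cause was not tested.

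With Spearman's rho the medians of pairs were 0.337 for habenula genes in batch B and 0.37 and 0.511 for thalamus genes in A and B. Without the 3 libraries the medians of Pearson's r were 0 for habenula genes in B, 0.532 for thalamus genes in A and 0.141 between both in B. At 0.5 CPM in place of 1 CPM, 5 libraries carried Gpr151 and 5 carried Pou4f1. Of the 10 genes most like Gpr151, 1 was kept with rho, 1 with batch means subtracted and 3 with a pseudocount of 0.1, and of those most like Tcf7l2 1 with rho and 6 with that pseudocount.

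Without the batch term the called genes numbered 1187 (RYGB against sham), 920 (BWM against sham), 601 (lean against sham), 2 (PYY3-36 + liraglutide against saline) and 4 (sham against saline), with 1 list gene each for BWM and lean. Without the filter they were 2099 between batches, with 1 list gene there (Col16a1) and 1 in RYGB against sham. Within batch A they were 294 (RYGB against sham, with 6 list genes), 273 (BWM against sham, with 1), 12 (RYGB against BWM), 0 (PYY3-36 + liraglutide) and 0 (sham against saline), where edgeR gave 180 and 2576 at an unadjusted p under 0.05. Within batch B they were 1 (liraglutide), 1 (sham against saline) and 0 (PYY3-36 + liraglutide, 1969 unadjusted), with 1 list gene in RYGB against sham. DESeq2 called 171 (BWM against sham), 23 (lean), 12 (PYY3-36), 14 (liraglutide), 19 (PYY3-36 + liraglutide) and 29 (sham against saline), with 1 list gene each for BWM, PYY3-36 + liraglutide, sham against saline and the batches.

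With replicate number as a paired block, edgeR called 420 genes in RYGB against sham (1 list gene), 1 in BWM against sham, 0 in RYGB against BWM (2914 unadjusted, 45 by DESeq2 with no block), 0 in PYY3-36 + liraglutide against saline (935 unadjusted), 0 in sham against saline (1639 unadjusted) and 627 between batches (the list genes Col16a1 and Lmo3, 2 in all). Libraries of the same number in different groups were no more alike (median r 0.00831 over 171 pairs) than others (-0.00648 over 1638 pairs), so the number was not used as a pair. In alternatives added after seeing the data, leaving out saline 5, saline 7 and sham 1 gave 37 (BWM against sham), 210 (lean), 0 (PYY3-36 + liraglutide) and 63 (sham against saline), with 1 list gene between batches, and leaving out saline 4, sham 2, lean 2 and PYY3-36 2 gave 26 for BWM against sham.

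Leaving out 1 library at a time, medians of pairs lay between -0.139 and 0.031 (habenula genes in A), 0.616 and 0.813 (in B), 0.532 and 0.821 (thalamus genes in A), 0.694 and 0.808 (in B), 0.03 and 0.12 (between both in A) and 0.335 and 0.633 (in B). Called genes lay between 337 and 734 (RYGB against sham), 4 and 238 (BWM against sham), 0 and 259 (lean), 2 and 83 (RYGB against BWM), 0 and 1 (PYY3-36), 0 and 0 (liraglutide), 0 and 1 (PYY3-36 + liraglutide), 1 and 99 (sham against saline) and 997 and 1166 (batches). List genes lay between 1 and 4 (RYGB against sham), 0 and 1 (BWM and lean), 0 and 0 (RYGB against BWM and each hormone group) and 0 and 2 (sham against saline and batches). Depth limits Gpr151 and Pou4f1, which were at or under 3 counts in most libraries, and their fitted fold changes depend on few libraries.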
